A study of Mus musculus with 8 samples.

Results

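Mesothelium-rich spots of the embryonic mouse diaphragm were described in 3 control sections at E14.5. Visium is a spatial assay in which a tissue section lies on an array of barcoded capture spots, 55 µm wide with centres 100 µm apart, and each transcript captured is counted once as a UMI (unique molecular identifier). A spot therefore holds several cells or parts of cells, not 1 cell. Spots with at least 1000 UMIs were ranked in each section by the summed UMIs of *Krt7*, *Krt19*, *Lrrn4*, *Msln* and *Myrf* over all UMIs of the spot, and the top 10% were taken. This gave 81 of 813 spots in control 1, 84 of 842 in control 2 and 68 of 683 in control 3, together 233 of 2338. These measured values chose the spots, so the levels of the 5 genes are given below as a description and carry no test.

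The mesothelium is the single layer of flat epithelial cells that covers the organs and walls of the body cavities. On the diaphragm it lines the pleural side toward the lungs and the peritoneal side toward the liver. Its cells sit on a basement membrane, bear microvilli and a coat of glycoproteins such as mesothelin (*Msln*), and make keratins like other epithelia together with genes of the embryonic mesoderm they come from. In the embryo the mesothelium is a source of retinoic acid and of secreted signals for the tissue beneath it.

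The whole series held 12771 spots under tissue in 8 sections of E14.5 and E18.5 diaphragms. Each section was 5 µm thick, cut parallel to the flat diaphragm from formaldehyde-fixed, paraffin-embedded tissue, and each sample was an embryo of its own. The 3 sections used here were labelled control at E14.5. Per the study's methods, a control embryo carried at least 1 working allele of CaV1.1, the calcium channel of skeletal muscle, and at least 1 of β-catenin. The crosses also held floxed β-catenin alleles with an HSA (human skeletal actin) driver, which acts in skeletal muscle, and which of these alleles each control carried is not given in its labels. 2 control sections at E18.5 and 1 CaV1.1 KO section at E14.5, which lacks the channel, entered the comparisons at the end.

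The spots under tissue held 30618837 UMIs in control 1, 38967220 in control 2 and 14179161 in control 3. The mesothelium-rich spots held 2717399, 3231287 and 875233 of these. Their median was 20781 UMIs a spot against 17998.5 in the other spots of control 1, 37497 against 46269.5 in control 2, and 11181 against 21715 in control 3. The log2 ratio of the medians was −0.35 ± 0.58 (SD, n = 3 sections), a description with no test because the rule divides by the UMIs of the spot. In control 3, 72.1% of the mesothelium-rich spots fell in the shallowest of 3 depth classes of equal size, against 28.4% in control 1 and 39.3% in control 2. The spots were therefore also chosen within the 3 depth classes of each section. Of 127 genes followed against the rest of the section, 13 then lost their call, 1 gained one (*Tgfb2*, 0.39, edgeR adjusted p = 0.025) and 2 turned sign. Those that lost it were *Nkain4* (0.72, adjusted p = 0.12), *Cdon* (0.32, 0.076), *Col14a1* (0.25, 0.097), *Trp63* (−0.82, 0.057), *Tagln* (0.38, 0.10), *Notch3* (−0.34, 0.079), *Lpl* (−0.39, 0.052), *Dio2* (−0.56, 0.19), *Ccna2* (−0.16, 0.18), *Apoa1* (−1.19, 0.067), *Hbb-bs* (−0.71, 0.19), *Hba-a2* (−0.69, 0.20) and *Hbb-bt* (−0.76, 0.17).

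The sections also differed in what else they held. Genes of the adrenal cortex summed to 1220 CPM (UMIs per 1000000 UMIs of the set) in the rest of control 1 against 79.1 CPM in its mesothelium-rich spots, and to at most 26.3 CPM in either set of the other controls. Liver genes were low in control 1, at 36.4 CPM in the mesothelium-rich spots and 35.7 CPM in the rest. They summed to 448.7 against 1586 CPM in control 2 and to 300.5 against 857 CPM in control 3. Red blood cell genes followed the same split between sections, with 205 against 182 CPM, 1628 against 5263 CPM and 770.1 against 2686 CPM. Leaving out spots rich in adrenal or liver genes removed 18, 125 and 50 spots, of which 0, 6 and 3 were mesothelium-rich.

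**Figure D1:**
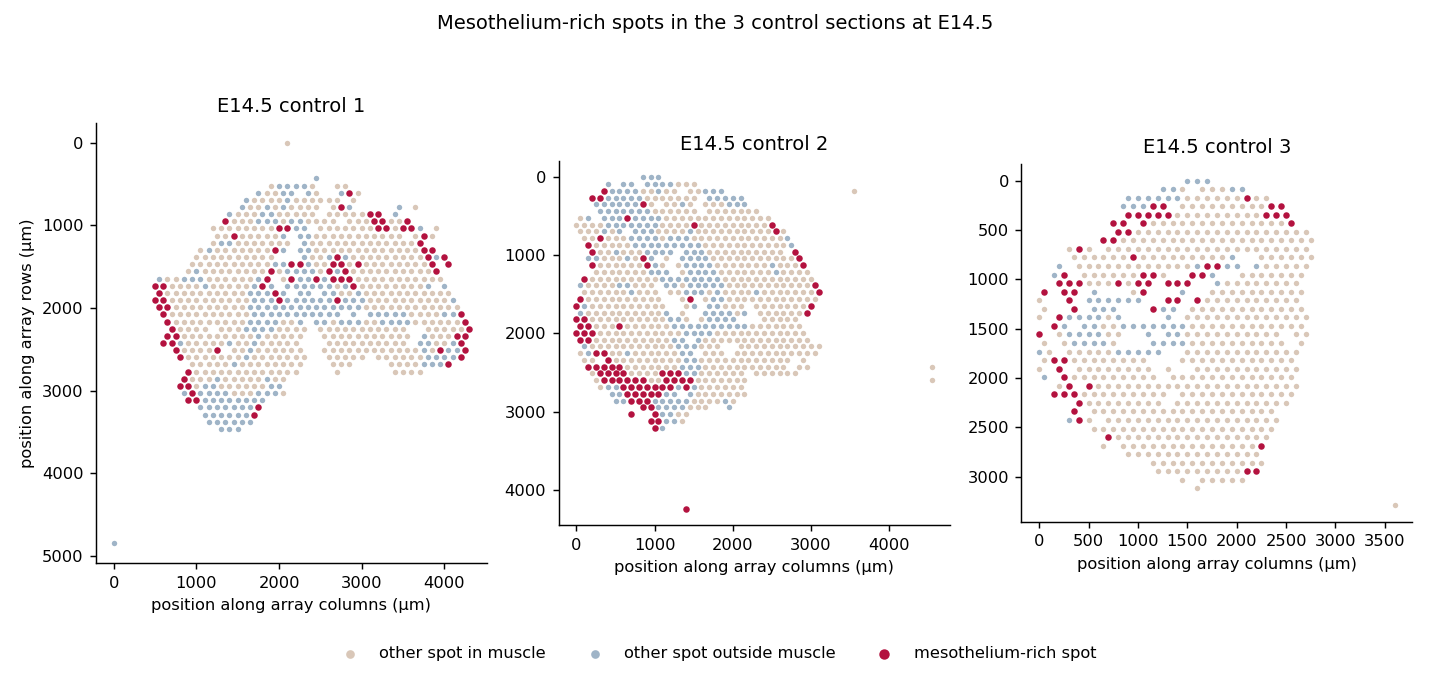
Spots of the 3 control sections at E14.5, drawn by array position in µm. Mesothelium-rich spots (red, 81, 84 and 68) lay along the outer rim and in patches inside, among other spots in muscle (tan) and outside muscle (blue).

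The mesothelium-rich spots touched the outer outline of the sections more often than the other spots, though many lay inside. In control 1, 51.85% of them touched the outer outline against 14.89% of the other spots. The shares were 38.1% against 13.32% in control 2 and 54.41% against 15.28% in control 3. The difference was 33.62 ± 7.735 percentage points (SD, n = 3, higher in 3 of 3 sections; exact sign-flip test, two-sided p = 0.25, the smallest p that 3 sections allow). Chosen within depth classes, 41 of 81, 25 of 84 and 23 of 69 mesothelium-rich spots touched the outline, fewer than the 42, 32 and 37 of the main choice in each section, with the greater losses in controls 2 and 3. The remaining spots formed patches inside the sections, and in control 3, 45.59% of the mesothelium-rich spots bordered a hole of the section against 15.45% of the others, while controls 1 and 2 had 14.81% and 9.524% against 11.75% and 15.96%.

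They also clustered together. Of the up to 6 neighbours of a mesothelium-rich spot, 43.0%, 54.1% and 48.3% were mesothelium-rich themselves, against 5.99%, 4.77% and 5.13% of the neighbours of other spots (difference 43.17 ± 6.16 percentage points, SD, n = 3; exact sign-flip test, two-sided p = 0.25). They formed 25, 20 and 20 patches, the widest of 16, 47 and 14 spots, and 12, 10 and 11 spots stood alone. Of the 3, 5 and 1 spots with no neighbour of at least 1000 UMIs, 0, 2 and 0 were mesothelium-rich.

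Most other spots were muscle. A spot was called muscle by the mean level of 9 muscle genes, split in each section at the value that best separates its high and low spots. By this call 34.57%, 34.52% and 63.24% of the mesothelium-rich spots lay in muscle, against 71.17%, 71.5% and 87.48% of the others (difference −32.61 ± 7.248 percentage points, SD, n = 3; exact sign-flip test, two-sided p = 0.25). A comparison with the rest of the section thus also compared less muscle with more muscle, and 53, 55 and 25 mesothelium-rich spots outside muscle were compared with the 211, 216 and 77 other spots outside muscle as well.

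The 5 genes of the rule gave the mesothelium-rich spots 2096, 4042 and 424 UMIs, which was 53.9%, 50.9% and 33.8% of all their UMIs in each section. The median spot held 17, 43 and 6 of them, against 1, 2 and 1 in the other spots. The last spot taken had 3.549, 6.06 and 3.225 rule UMIs per 10000, and the first spot not taken had 3.522, 5.982 and 3.21. The sets therefore had no gap at their edge, and in control 3 many spots were chosen on a handful of UMIs.

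As a check of the label, each of the 5 genes was read on spots chosen with the other 4. *Msln*, which encodes the surface glycoprotein mesothelin, was then 15.58 times, 13.09 times and 8.925 times its level in the rest of controls 1, 2 and 3. *Krt19*, an epithelial keratin, was 13.32, 14.37 and 3.406 times as high, and *Krt7* was 11.7, 11.35 and 4.438 times as high. *Lrrn4*, a leucine-rich repeat membrane protein, gave ratios of 8.533, 10.9 and 4.888, and the transcription factor gene *Myrf* gave 9.062, 7.81 and 3.7. Every ratio was lower in control 3 than in the other controls. Each gene was thus higher in spots that it had no part in choosing.

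Mesothelial genes outside the rule were higher in the mesothelium-rich spots. UMIs of each set of spots were summed per section, and the sums were fitted in edgeR (quasi-likelihood F-test, sections as blocks, p-values adjusted after Benjamini and Hochberg). Of 13178 genes tested, 1302 were higher and 1386 lower (20.4% of genes in all, 9.88% higher and 10.5% lower). On library totals without TMM scaling 1657 were higher and 1117 lower. Of 19 other mesothelial genes with probes, 15 had enough counts to be tested and 15 of these were higher, with a median log2 fold change of 2.12 against 0.0021 over all genes. Without a filter on low counts 17 of 19 were higher, beside 7.86% of all genes, and the log2 fold changes of the 15 ran from 0.95 for *Nkain4* to 3.71 for *Muc16*. *Slpi*, *Calb2*, *Chst4* and *Dmkn* were too low to test. Among the 15, *Anxa8* and *Upk1b* were low in the rest of each section, and their calls are a description only, as given below. Fewer cells of a type and less RNA per cell cannot be told apart in such sums.

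*Muc16*, the membrane mucin that carries the CA125 antigen, stood at 19.5, 72.8 and 8.95 CPM in the mesothelium-rich spots of controls 1, 2 and 3, against 1.51, 4.19 and 1.76 CPM in the rest (log2 fold change 3.71 ± 0.29 SE, edgeR adjusted p = 3.3e-05). The lowest mesothelium-rich value was above the highest value of the rest. *Upk3b*, a uroplakin that marks mesothelium, stood at 16.6, 18.3 and 4.48 CPM against 1.47, 1.47 and 1.30 CPM (3.29 ± 0.36, adjusted p = 0.000166). *Bnc1*, a zinc finger gene of epithelia, stood at 26.0, 51.4 and 14.545 CPM against 2.10, 5.38 and 2.76 CPM (3.22 ± 0.25, adjusted p = 3.1e-05). *Wt1*, the transcription factor of the mesothelium and of the septum transversum, stood at 130, 142 and 83.9 CPM against 42.4, 52.6 and 48.5 CPM (1.36 ± 0.12, adjusted p = 7.1e-05). For each of these genes the groups did not overlap, and control 3 had the lowest level in mesothelium-rich spots.

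The remaining members of the list rose by 3.08 (*Upk1b*), 3.04 (*Crb2*), 2.38 (*Gpm6a*), 2.12 (*Podxl*), 2.11 (*Cldn15*), 2.04 (*Aldh1a2*), 1.80 (*Ezr*), 1.69 (*Rarres2*) and 1.503 (*Krt8*) on the log2 scale. *Krt8*, another keratin, lost its call without control 1 (1.17, edgeR adjusted p = 0.12), and *Nkain4* lost its call without control 2 (0.64, adjusted p = 0.17). *Anxa8* (3.10 ± 0.67, adjusted p = 0.00775) rested on few counts, with 1.44 and 3.67 CPM in controls 1 and 2 and none in the mesothelium-rich spots of control 3. In the rest *Anxa8* held 3, 14 and 2 UMIs (0.11, 0.39 and 0.15 CPM without TMM scaling). *Upk1b* held 20, 48 and 11 UMIs there (0.72, 1.34 and 0.83 CPM without TMM scaling). By level both genes reached the test only through the spots where they were high, so their calls are a description. Without control 1, 13 of 14 members tested were higher, without control 2 again 13 of 14, and without control 3 16 of 17. Of all genes tested, 4.45%, 6.62% and 11.1% were higher in these 3 fits.

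**Figure D2:**
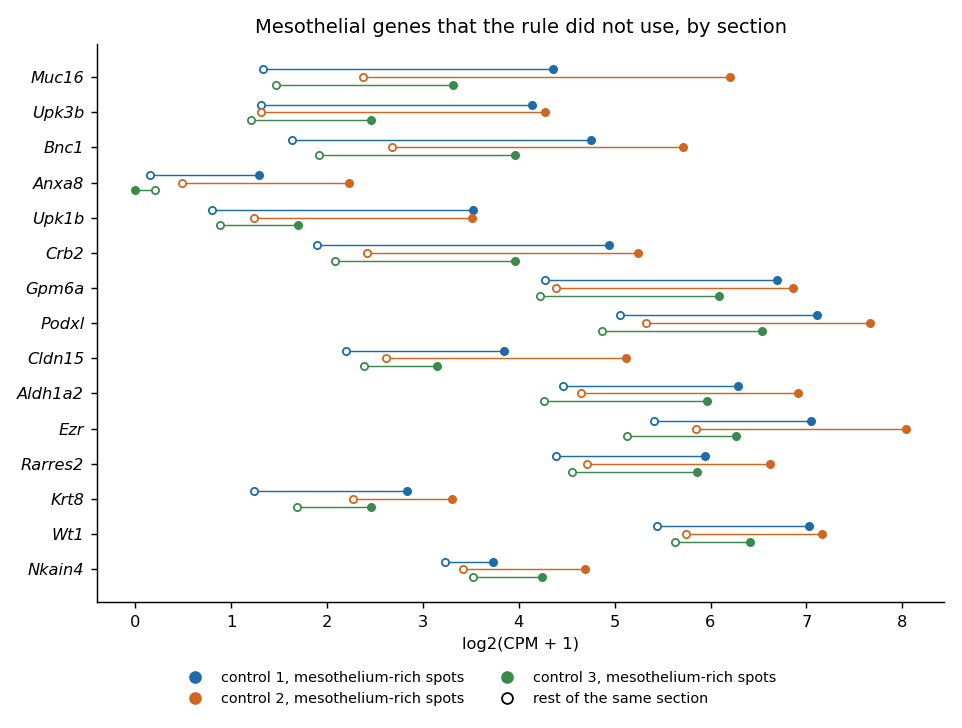
Level of 15 mesothelial genes that the rule did not use, as log2(CPM + 1), in mesothelium-rich spots (filled) and in the rest of the same section (open), 1 line per control section. The filled point lay to the right in every pair except *Anxa8* in control 3, which is 0 there.

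The promoters of the mesothelial genes that moved together were searched for CATTCC, the core letters of the motif bound by TEAD factors, on both strands in the 250 bases before each start. The start sites came from RefSeq on GRCm38.p6, and 10 of the 15 genes were matched there. The letters stood in 3 of these 10, and in 12.6% of the 32851 promoters of that length. The 3 promoters are shown so that the match can be seen in its context, with the motif or its reverse complement GGAATG in capitals. All 3 genes lie on the plus strand. The windows are chr5:136038246-136038495 for *Upk3b*, with the match 241 bases before the start, chr8:54779184-54779433 for *Gpm6a*, 125 bases before it, and chr5:136967619-136967868 for *Cldn15*, 237 bases before it.
Upk3b: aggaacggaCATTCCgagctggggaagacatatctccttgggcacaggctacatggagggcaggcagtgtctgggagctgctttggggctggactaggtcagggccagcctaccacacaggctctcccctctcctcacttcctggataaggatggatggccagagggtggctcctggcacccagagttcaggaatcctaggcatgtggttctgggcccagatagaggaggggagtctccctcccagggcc
Gpm6a: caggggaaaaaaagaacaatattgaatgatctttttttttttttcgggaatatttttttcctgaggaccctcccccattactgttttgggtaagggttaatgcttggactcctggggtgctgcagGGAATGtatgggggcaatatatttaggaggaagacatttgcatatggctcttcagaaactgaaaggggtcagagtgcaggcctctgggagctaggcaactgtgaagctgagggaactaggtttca
Cldn15: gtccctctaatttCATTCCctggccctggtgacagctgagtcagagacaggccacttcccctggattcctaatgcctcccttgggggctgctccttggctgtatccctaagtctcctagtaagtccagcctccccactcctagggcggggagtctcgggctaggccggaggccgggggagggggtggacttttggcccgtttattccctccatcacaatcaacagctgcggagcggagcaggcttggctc

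A match is a description and not a binding site. *Tead1*, the only TEAD gene on the gene lists, stood at 175, 192 and 175 CPM in mesothelium-rich spots against 179, 176 and 186 CPM in the rest (log2 fold change 0.01, edgeR adjusted p = 0.94), so its groups overlapped. Other TEAD genes were not read here.

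Of the genes with an average level of at least 5 on the log2 CPM scale, the 10 that rose most outside the rule were led by *Fmo2*, which encodes a flavin-containing monooxygenase. *Fmo2* stood at 61.4, 315 and 3.36 CPM against 7.19, 10.39 and 1.38 CPM (4.08 ± 0.35, adjusted p = 5.3e-05), and the value in control 3 came from 3 UMIs. The calcium-binding protein gene *S100a6* stood at 251, 585 and 67.1 CPM against 29.6, 56.2 and 21.5 CPM (2.98 ± 0.21, adjusted p = 2.0e-05). Both genes were highest in control 2, lowest in control 3 and higher than the rest within every section. Across sections the groups of *S100a6* did not overlap, while *Fmo2* in control 3 was below the rest of controls 1 and 2. The others were the Wnt ligand gene *Wnt2b* (2.68), the matricellular protein gene *Ccn3* (2.39), *Gpm6a*, *Podxl*, the estrogen receptor gene *Esr1* (2.09), *Aldh1a2*, *Tmem108* and the P-cadherin gene *Cdh3* (1.92). *Esr1* stood at 74.4, 139 and 14.545 CPM against 16.4, 25.6 and 11.2 CPM, and its low value in control 3 overlapped the rest of the other controls.

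The 5 that fell most were genes of the other tissues in the sections. *Ly6d* (−4.59) and *Akr1b7* (−4.32), which is made in the adrenal cortex, were counted almost solely in control 1, at 7.22 against 174 CPM and at 17.0 against 340 CPM. With adrenal-rich and liver-rich spots left out, their changes were −0.84 (adjusted p = 0.19) and −0.86 (adjusted p = 0.054). On all spots DESeq2 called neither *Ly6d* (−1.035, DESeq2 adjusted p = 0.93) nor *Akr1b7* (−2.29, 0.49). The liver genes *Ahsg* (−1.98), *Ttr* (−1.89) and *Afp* (−1.81) were lower in 3 of 3 sections but near 0 in control 1. The number of genes past the threshold was 2688 in all, 1115 without control 1 and 1742 without control 2.

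Outside muscle, the mesothelial genes remained apart from the other spots. Of 11736 genes tested there, 201 were higher and 195 lower in the mesothelium-rich spots (3.37% in all, 1.71% higher and 1.66% lower). The mesothelial list gave 12 of 14 genes higher with a median of 2.02 against −0.012 over all genes, and the 12 were among the 15 above. The 9 muscle genes gave 0 calls in this comparison with a median of 0.13, against 9 of 9 lower with a median of −0.79 in the comparison with the rest of the section. Without control 3 the count of genes was 159, and the calls of *Upk1b* (3.48, edgeR adjusted p = 0.063), *Aldh1a2* (1.497, adjusted p = 0.055) and *Fgf1* (1.67, adjusted p = 0.065) ended. Without the section as a block it was 0, with 911 genes at an unadjusted p under 0.05, and DESeq2 called 181 genes.

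The genes that rose most outside muscle were *S100a6* (2.51), *Gpm6a* (2.27), *Wnt2b* (2.19), *Tmem108* (2.17), *Ccn3* (2.05), the prostaglandin receptor gene *Ptger3* (1.89), *Frem2* (1.89), a protein of the epithelial basement membrane, *Slc9a3r1* (1.89), the scaffold that binds ezrin, the integrin gene *Itga3* (1.87) and *Podxl* (1.76). *Frem2* stood at 152, 308 and 77.3 CPM against 54.2, 53.0 and 41.3 CPM (± 0.23 SE, edgeR adjusted p = 0.0013). *Ptger3* stood at 42.2, 123 and 81.9 CPM against 15.5, 23.2 and 31.2 CPM (± 0.21, adjusted p = 0.000918). Neither gene had overlapping groups. The 5 that fell most, *Mrap* (−6.94), *Cyp11a1* (−5.97), *Ly6d* (−5.94), *Akr1b7* (−5.85) and *Kcnk3* (−4.73), were highest in the other spots of control 1, where *Cyp11a1* stood at 850 CPM and *Kcnk3* at 205 CPM. With adrenal-rich and liver-rich spots left out, 652 genes were called and the mesothelial list gave 14 of 14 higher, beside 2.99% of all genes tested.

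Junction and polarity genes were partly higher. Of 20 tested, 9 were higher and 1 was lower than in the rest of the section, with a median of 0.66, and 6 of 18 were higher outside muscle. The shares over all genes were 9.88% higher and 10.5% lower against the rest, and 1.71% higher outside muscle. *Cdh3* stood at 150, 308 and 52.6 CPM against 36.5, 63.0 and 32.5 CPM (1.92 ± 0.19, edgeR adjusted p = 0.000108). *Pard6b*, a subunit of the apical polarity complex, stood at 32.9, 49.2 and 14.545 CPM against 4.83, 7.05 and 5.596 CPM (2.52 ± 0.25, adjusted p = 9.5e-05). *Crb2*, a partner of that complex, and *Cldn15*, a claudin, are given above. Cingulin (*Cgn*, 1.86) and desmoplakin (*Dsp*, 1.82) rose as well, *F11r* (1.01) and *Jup* (0.49) rose less, and *Tjp1*, which encodes ZO-1, had a log2 fold change of 0.01 (adjusted p = 0.96) that turned sign in other settings. Classical E-cadherin (*Cdh1*) was near 0 throughout, at 1.44, 1.83 and 0 CPM in mesothelium-rich spots.

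Genes of the cell surface and microvilli gave 6 of 16 higher and 1 lower (median 0.21), beside 9.88% and 10.5% of all genes. Outside muscle 5 of 13 were higher and 1, the water channel gene *Aqp1* (−0.75), was lower, beside 1.71% and 1.66% of all genes. *Ezr*, which links microvilli to actin, stood at 131, 262 and 76.1 CPM against 41.4, 56.4 and 33.9 CPM (1.80 ± 0.15, edgeR adjusted p = 4.1e-05). Its partner *Slc9a3r1* stood at 154, 264 and 80.6 CPM against 52.9, 55.5 and 48.4 CPM (1.67, adjusted p = 0.00022). The sialomucin *Podxl* stood at 137, 201 and 91.7 CPM against 32.2, 39.1 and 28.2 CPM (2.12 ± 0.11, adjusted p = 3.5e-06). The syndecan genes *Sdc4* (1.03) and *Sdc1* (0.30) rose less, the latter not without control 1 or control 2 (adjusted p = 0.061 and 0.11), and *Ehd2* had a log2 fold change of −0.11 (adjusted p = 0.32). The ezrin relatives *Msn* (−0.04) and *Rdx* (−0.10) did not pass the test.

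Basement membrane genes divided by chain. Of 20 tested, 6 were higher and 3 lower (median 0.03), and outside muscle 5 of 17 were higher and 1 lower. Over all genes the shares were 9.88% higher and 10.5% lower, and outside muscle 1.71% and 1.66%. The share of lower genes in this list against the rest was thus near that of all genes. The collagen IV chains α5 and α6, *Col4a5* (1.63 ± 0.16, edgeR adjusted p = 0.000103) and *Col4a6* (2.07 ± 0.34, adjusted p = 0.00155), were higher, but with outline spots left out *Col4a6* lost its call (1.61, adjusted p = 0.088). *Col4a5* stood at 32.1, 42.2 and 30.2 CPM against 11.8, 11.5 and 10.7 CPM. The chains α1 and α2, *Col4a1* (−0.94) and *Col4a2* (−0.67), were lower, with *Col4a1* at 230, 216 and 330 CPM against 521, 454 and 459 CPM. None of these groups overlapped. Nidogen 2 (*Nid2*, 0.82) was also higher, and *Lamb1* had a log2 fold change of −0.07 (adjusted p = 0.50). *Lama5*, a laminin chain of epithelia, had a log2 fold change of 1.19 ± 0.13 outside muscle (adjusted p = 0.000841) and of 0.36 against the whole rest, just inside the threshold (adjusted p = 0.04999). The laminin receptor gene *Bcam* rose by 1.28 outside muscle, and stood at 160, 172 and 154 CPM against 165, 130 and 170 CPM in the whole sections, where its groups overlapped.

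Transcription factors of coelomic mesoderm gave 12 of 19 higher and 0 lower (median 0.88), beside 9.88% and 10.5% of all genes. Outside muscle 4 of 18 were higher, beside 1.71% of all genes. Beside *Wt1* and *Bnc1*, *Gata6* stood at 118, 120 and 45.9 CPM against 37.9, 39.9 and 25.6 CPM (1.48 ± 0.12, edgeR adjusted p = 4.8e-05). *Zfpm2*, the GATA cofactor known for its part in diaphragm development, stood at 83.1, 124 and 62.7 CPM against 34.0, 40.7 and 34.4 CPM (1.34 ± 0.12, adjusted p = 7.1e-05). *Gata4* stood at 140, 78.0 and 122 CPM against 70.9, 90.5 and 93.4 CPM and did not pass the test (0.40, adjusted p = 0.14). Its levels were lower than in the rest in control 2 and higher in the other 2 sections. *Bnc2* (1.07), *Meis2* (0.71) and *Meis1* (0.65) were higher.

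Many secreted ligands were higher. Of 38 tested, 21 were higher and 2 lower (median 0.66), beside 9.88% and 10.5% of all genes. Outside muscle 8 of 37 were higher and 2 lower (median 0.29), beside 1.71% and 1.66% of all genes. *Wnt2b*, a ligand of the canonical Wnt pathway, stood at 110, 154 and 57.1 CPM in mesothelium-rich spots against 17.8, 17.2 and 16.7 CPM in the rest (2.68 ± 0.19, edgeR adjusted p = 2.0e-05). Its levels in the rest were close to each other, and the groups were far apart in every section. *Rspo1*, a secreted amplifier of Wnt signals, stood at 27.8, 57.2 and 14.545 CPM against 5.12, 6.65 and 4.60 CPM (2.60 ± 0.25, adjusted p = 8.2e-05). The BMP-family gene *Gdf6* stood at 36.8, 25.7 and 10.1 CPM against 5.53, 8.18 and 6.90 CPM (1.90 ± 0.31, adjusted p = 0.00149). *Wnt5a*, a noncanonical Wnt ligand, stood at 136, 227 and 102 CPM against 47.1, 86.7 and 37.3 CPM (1.45 ± 0.078, adjusted p = 3.5e-06).

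Other ligand genes that rose included the guidance cue *Sema3d* (1.78), *Igf1* (0.62) and *Tgfb3* (0.49), whose call ended without control 1 (edgeR adjusted p = 0.086). *Igf2* (−0.17, edgeR adjusted p = 0.071) and *Tgfb2* (0.37, adjusted p = 0.061) did not pass the test, and the platelet-derived growth factor genes *Pdgfa* (−0.44) and *Pdgfb* (−0.82) were lower. *Tgfb2* passed without control 2 (0.50, edgeR adjusted p = 0.0076), without control 3 (0.50, 0.0020) and with the top 20% of spots (0.555, 0.027). It also passed without TMM (0.42, 0.041), with no filter (0.35, 0.00046) and with depth classes (0.39, 0.025). *Igf2* passed with no filter (−0.19, 0.018) and with adrenal-rich and liver-rich spots left out (−0.20, 0.025). Outside muscle the *Wnt2b* (2.19), *Rspo1* (2.26), *Gdf6* (1.87) and *Fgf1* (1.70) differences were called, while *Rspo3*, the relative of *Rspo1*, which rose by 0.71 in the whole sections, had a log2 fold change of −0.28 there and did not pass the test. The calls of *Gdf6* outside muscle ended without control 1 (1.05, adjusted p = 0.072) and without control 3 (1.82, adjusted p = 0.18).

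**Figure D3:**
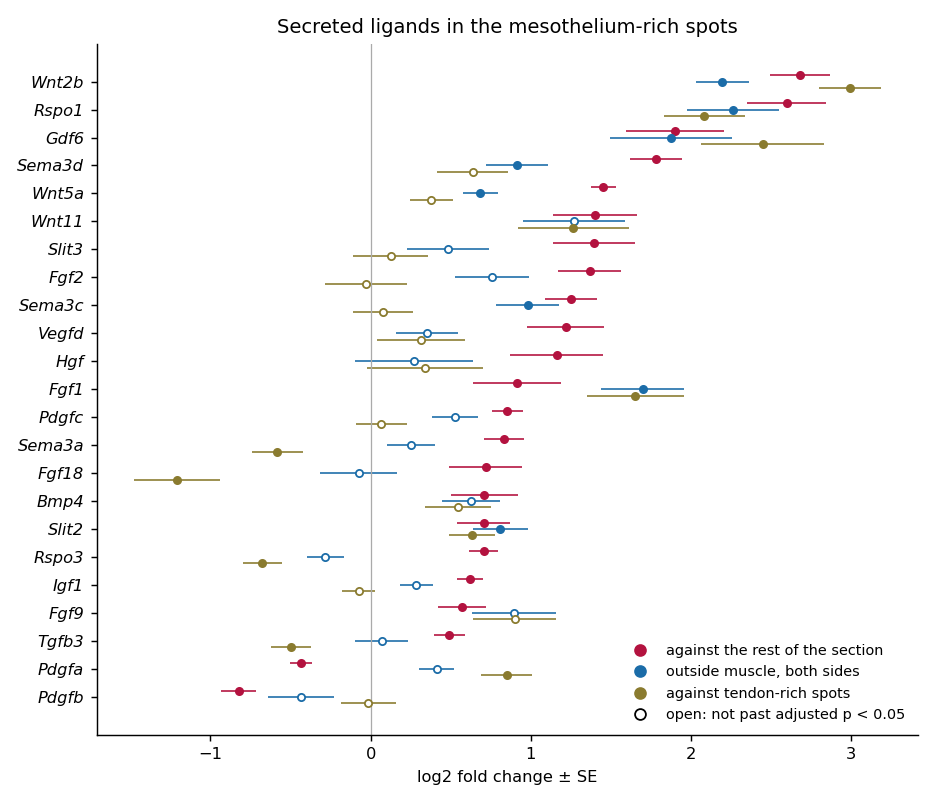
Log2 fold change ± SE (n = 3 sections) of secreted ligands that passed the test against the rest of the section, in mesothelium-rich spots against the rest (red), against other spots outside muscle (blue) and against tendon-rich spots (olive); open points did not pass an adjusted p of 0.05. *Wnt2b*, *Rspo1* and *Gdf6* were higher in all 3 comparisons, and *Wnt5a* fell from 1.45 against the rest to 0.38 against tendon-rich spots.

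Retinoic acid genes gave 6 of 16 higher and 2 lower (median 0.30), and outside muscle 1 higher and 1 lower of 15. For this and the next 2 lists, 9.88% of all genes were higher and 10.5% lower. Outside muscle 1.71% of all genes were higher and 1.66% lower. The share of lower retinoic acid genes against the rest was thus near that of all genes. The retinoic acid gene that rose in both comparisons was *Aldh1a2*, the enzyme that makes retinoic acid in the trunk, at 77.3, 120 and 61.5 CPM against 21.0, 24.0 and 18.2 CPM (2.04 ± 0.12, edgeR adjusted p = 9.1e-06). *Aldh1a3*, another enzyme of this step, was lower, at 13.7, 22.0 and 19.0 CPM against 37.2, 36.3 and 39.2 CPM (−1.03 ± 0.16, adjusted p = 0.00116). The binding proteins *Crabp2* (0.71) and *Crabp1* (0.34) were higher. Hedgehog pathway genes gave 4 of 10 higher and 0 lower (median 0.37), *Gas1* (0.53), *Cdon* (0.38), *Gli3* (0.37) and *Smo* (0.37), and 0 of 8 outside muscle. Without control 1 the calls of *Crabp1* (adjusted p = 0.32), *Cdon* (0.074), *Gli3* (0.051) and *Smo* (0.058) ended, and that of *Cdon* also without control 2 (0.34). Complement and defence genes gave 5 of 13 higher and 1 lower (median 0.77), and 2 higher and 1 lower of 10 outside muscle. They included *Rarres2*, the gene of the chemoattractant chemerin, at 60.7, 97.2 and 57.1 CPM against 19.9, 25.3 and 22.5 CPM (1.69 ± 0.13, adjusted p = 2.9e-05), the complement regulator *Serping1* (1.05), and *C3*, which was lower (−1.89, adjusted p = 0.0019). *C3*, which the liver also makes, stood at 0, 7.03 and 2.24 CPM against 0.737, 23.0 and 13.03 CPM, and its level in the rest was ordered over the sections as the liver gene sums of 35.7, 1586 and 857 CPM, whose part in its change was not tested. With adrenal-rich and liver-rich spots left out, 0 of 10 genes of this list were lower, beside 11.5% of all genes tested.

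Markers of other epithelia were read because keratins are shared among them. The lung epithelium list had 1, 3 and 0 UMIs in the mesothelium-rich spots, and its defining genes *Sftpc*, *Nkx2-1* and *Cldn18* were at 0 in all 3 sections. In the gut list *Sox2*, *Foxa2*, *Cdx2*, *Tff1* and *Tff3* were at 0, and *Krt5* was at 0 in controls 1 and 3. Of the 4 genes of this list that could be tested, 1 was higher, beside 9.88% of all genes. This was *Krt14*, a keratin of stratified epithelia, at 15.9, 43.7 and 6.71 CPM against 1.07, 2.89 and 0.613 CPM (3.85 ± 0.27, edgeR adjusted p = 2.1e-05). It rose by 3.41 outside muscle. In the rest *Krt14* held 29, 102 and 8 UMIs. Its level let it reach the test only through the spots where it was high, so this call is a description. *Trp63*, the transcription factor of stratified epithelia, stood at 9.75, 5.503 and 11.2 CPM against 14.4, 13.4 and 13.7 CPM, and in control 3 it was the highest of the list in mesothelium-rich spots. It was lower than in the rest (−0.77), and its call ended without control 1 and without control 2. *Ly6d*, also on this list, was lower and is given above. *Barx1* did not pass the test (0.93, adjusted p = 0.16).

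Some connective tissue genes were higher. The fibroblast list gave 9 of 17 higher and 2 lower (median 0.36), among them decorin (*Dcn*) at 377, 525 and 324 CPM against 267, 300 and 260 CPM (0.56 ± 0.085, edgeR adjusted p = 0.000993), *Col1a1* (0.45), *Col3a1* (0.45), *Col1a2* (0.40) and *Col14a1* (0.30). Without control 1, 4 of 17 were higher, beside 4.45% of all genes, and *Col1a1* (adjusted p = 0.051), *Col1a2* (0.053) and *Col14a1* (0.077) no longer passed. Outside muscle 1 of 17 was higher, *Dcn* (0.43), where 1.71% of all genes were higher and 1.66% lower. The tendon list gave 4 of 10 higher (median 0.09), *Tnc* (0.64), *Antxr1* (0.60), *Col12a1* (0.47) and *Fmod* (0.44), with *Col11a1* at 0.06 (adjusted p = 0.66), and outside muscle 0 higher and 4 lower. *Tnc* rested on control 1, where it stood at 742 against 280 CPM, and gave 0.21 (adjusted p = 0.24) without it. Smooth muscle and pericyte genes gave 1 of 10 higher, *Tagln* (0.57), and 3 lower, *Acta2* (−0.28), *Notch3* (−0.52) and *Abcc9* (−0.67), and cartilage genes gave *Sox9* higher (0.64), 2 of 8 lower with *Col2a1* (−1.03), and *Col9a2* (0.16) and *Col9a3* (0.17) past no threshold. Of all genes tested against the rest, 9.88% were higher and 10.5% lower, so the share of higher genes in the smooth muscle list was near that of all genes. The calls of *Tagln*, *Acta2*, *Sox9* and *Col2a1* ended without control 1 (adjusted p of 0.12, 0.059, 0.057 and 0.076), and those of *Acta2*, *Notch3* and *Col2a1* without control 2 (0.16, 0.13 and 0.15).

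Many vessel genes were lower. The endothelial list gave 8 of 10 lower and 0 higher (median −1.16), and 6 of 10 lower outside muscle. For this and the lists below, the share of all genes was 10.5% lower and 9.88% higher. Outside muscle it was 1.66% lower and 1.71% higher. *Cdh5*, the cadherin of endothelium, stood at 69.0, 49.2 and 106 CPM against 139, 158 and 125 CPM (−1.06, edgeR adjusted p = 0.0024), a call that DESeq2 did not make (−0.98, adjusted p = 0.085), and *Egfl7* (−1.07) and *Esam* (−1.001) were lower too. *Kdr*, the receptor for VEGF, did not pass the test, at 83.1, 93.2 and 67.1 CPM against 81.1, 93.0 and 74.0 CPM (−0.01, adjusted p = 0.9999). In muscle spots alone *Kdr* was lower and passed (−0.48, edgeR adjusted p = 0.0048). Of the lymphatic list, *Pdpn*, which mesothelium also makes, was higher (0.83), *Prox1* (−0.72) and *Reln* (−1.11) were lower and *Flt4* did not pass the test (−0.54, adjusted p = 0.23). Schwann cell genes gave 5 of 9 lower and 0 higher (median −0.84), among them *Erbb3* (−0.97) and *Foxd3* (−0.84), with *Ngfr* at −0.42 (adjusted p = 0.088), and outside muscle 0 of 5 passed the test (median −0.33). Adipocyte genes gave 3 of 6 lower, *Lpl* (−0.44), *Fabp4* (−1.21) and *Dio2* (−0.84), with *Cebpa* at 0.37 and not called, and outside muscle 1 of 4 was lower. Without control 1 the calls of *Prox1*, *Foxd3*, *Lpl* and *Dio2* ended (adjusted p of 0.065, 0.37, 0.13 and 0.12). That of *Foxd3* also ended without control 2 (−0.78, edgeR adjusted p = 0.088).

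Macrophage genes gave 6 of 10 higher and 0 lower (median 0.66), beside 9.88% and 10.5% of all genes. Their sum was 678.2 against 332.8 CPM in control 1, 417.2 against 340.9 CPM in control 2 and 596.4 against 304.5 CPM in control 3, led by *C1qa*, *C1qc* and *Mrc1* in turn. *Mrc1*, the mannose receptor, stood at 76.9, 55.3 and 128 CPM against 37.4, 36.9 and 46.8 CPM (0.99, edgeR adjusted p = 0.00064), and the complement genes *C1qa* (0.67), *C1qc* (0.64) and *C1qb* (0.60) rose with it. 2 of 10 were higher without control 1, where *C1qa*, *C1qb* and *C1qc* did not pass the test, and 9 of 10 without control 2. In these fits 4.45% and 6.62% of all genes were higher. Outside muscle 0 of 10 passed the test (median 0.06). Their part in the other results was not tested.

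Muscle genes were lower in all 3 sections, while blood, liver and adrenal genes followed the tissue that each section held. The liver and blood sums given above were lower in the mesothelium-rich spots of controls 2 and 3 but not of control 1, and the adrenal sum was lower in control 1 alone. The muscle list gave 9 of 9 lower, with *Mylpf* (−0.76), *Acta1* (−0.79) and *Des* (−0.64). Its sum was 12980, 9945 and 15640 CPM against 22100, 18440 and 21740 CPM, and within muscle spots alone its median was −0.35. Red blood cell genes gave 7 of 8 lower (median −1.22), among them *Hbb-bs* (−1.33), *Hba-a2* (−1.20), *Hbb-bt* (−1.23) and *Ermap* (−1.18). *Hbb-bs* stood at 103 against 93.6 CPM in control 1, the other way round from controls 2 and 3. With adrenal-rich and liver-rich spots left out, 2 of 8 red blood cell genes were lower, beside 11.5% of all genes tested, and *Hbb-bs* (−0.51, edgeR adjusted p = 0.070), *Hba-a2* (−0.46, adjusted p = 0.10) and *Hbb-bt* (−0.24, adjusted p = 0.32) did not pass the test. DESeq2 called 1 of 8 lower, beside 6.15% of all genes, and without control 2 4 of 7 were lower, beside 6.95% of all genes. The liver list gave 8 of 10 lower (median −1.79), with *Alb* (−1.77), *Apoa1* (−1.75) and *Trf* (−0.85, edgeR adjusted p = 0.058), and the adrenal list 7 of 8 lower (median −3.57), with *Star* (−3.41), *Cyp11a1* (−4.19) and *Fdx1* (−1.18, adjusted p = 0.13). With adrenal-rich and liver-rich spots left out, 5 of 9 liver genes and 0 of 7 adrenal genes were lower, and *Star* was at −0.41 (adjusted p = 0.31) and *Cyp11a1* at −0.58 (adjusted p = 0.21). DESeq2 called 0 of the 8 adrenal genes (*Star* adjusted p = 0.53, *Cyp11a1* 0.51), and without control 1 only 2 adrenal genes could be tested and neither was called, with *Star* at 0.109. Cell cycle genes gave 3 of 17 lower, beside 10.5% of all genes tested, and 0 higher (median −0.07). *Ccna2* was lower (−0.25), and *Mki67* (−0.07), *Cdk1* (−0.07) and *Mcm6* (0.01) were not called. The call of *Ccna2* ended with depth classes, in muscle spots alone and with the outline left out.

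Within muscle spots alone, 12 of 14 mesothelial genes were higher in the mesothelium-rich spots (median 2.07), where 5.81% of all genes tested were higher. With every spot of the outer outline left out on both sides, 12 of 14 were again higher (median 2.25), where 6.56% of all genes tested were. In muscle spots alone the calls of *Krt8* (1.03, edgeR adjusted p = 0.32), *Nkain4* (0.58, 0.27) and *Gdf6* (0.96, 0.070) ended, as did those of *Trp63*, *Acta2*, *Ccna2*, *Foxd3*, *Dio2*, *Col2a1*, *Gli3* and *C1qb*, and with the outline left out those of *Krt8* (1.42, 0.062), *Nkain4* (0.75, 0.19), *Tnc* (0.496, 0.12) and *C1qb* (0.43, 0.085), together with *Ccna2*, *Dio2*, *Trp63*, *Col2a1*, *Crabp1* and *Cdon*. DESeq2 on all spots did not call *Anxa8* (2.94, adjusted p = 0.058), *Tnc* (0.61, 0.39), *Sdc1* (0.30, 0.057) or *Fabp4* (−1.08, 0.18), nor *Trp63*, *Foxd3*, *Dio2*, *Crabp1* and *Cdon*.

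**Figure D4:**
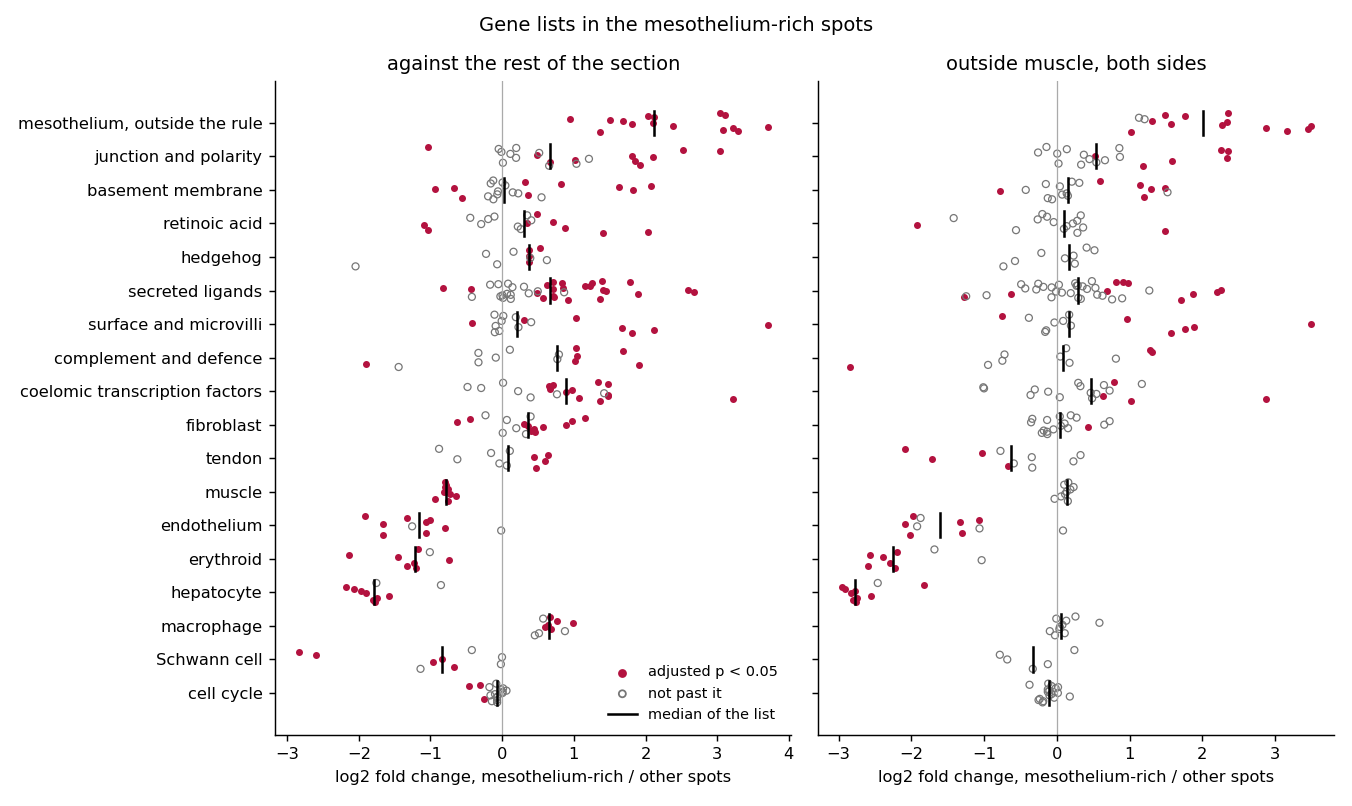
Log2 fold change of each tested gene of 18 lists (points, red where the adjusted p was under 0.05) and the list median (black bar), in mesothelium-rich spots against the rest of the section (left) and against other spots outside muscle (right). The median of mesothelial genes was 2.12 and 2.02, that of muscle genes −0.79 and 0.13, and that of endothelial genes −1.16 and −1.60.

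The summed level of the mesothelial genes fell off with distance from the mesothelium-rich spots. The sum of the 15 mesothelial genes was 788.3, 1213 and 523.3 CPM in them, 309.3, 386.3 and 273.4 CPM in spots 100 µm away, 223.4, 272.5 and 221.4 CPM in spots up to 200 µm away, and 155.8, 212.7 and 171.1 CPM farther off. The order was the same in each section. *Wnt2b* went from 111.9, 156.3 and 58.3 CPM to 39.2, 35.6 and 28.5 CPM in the next spots and to 11.8, 12.9 and 14.3 CPM farther off. *Dcn* fell more slowly, from 383.8, 531.1 and 331.3 CPM to 318, 349.8 and 302.5 CPM and then to 241.6, 280.6 and 243.9 CPM. Single genes did not all keep the order. *Aldh1a2* in control 1 stood at 30.04 CPM in the next spots and 31.81 CPM in those up to 200 µm away, *Fmo2* in control 3, on 3, 1, 8 and 9 UMIs, went from 3.43 to 0.571, 3.95 and 0.945 CPM, and *Rspo1* in control 3 ended at 3.46 and 3.57 CPM. *Ttn*, the giant protein of the sarcomere, ran the other way, from 1603, 1204 and 2078 CPM to 3007, 2227 and 2884 CPM. These levels are CPM of the summed UMIs without further scaling, and are given as a description since the rule sets the centre of the rings.

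**Figure D5:**
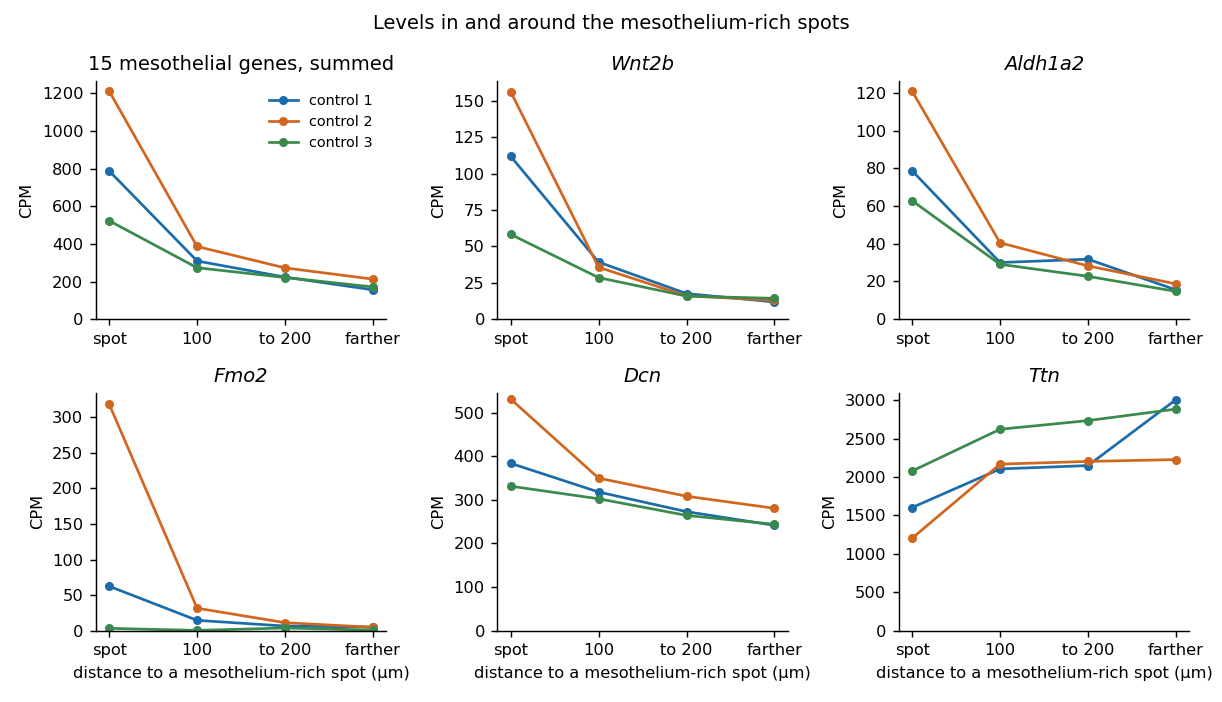
CPM of summed UMIs (vertical axis) against distance to the nearest mesothelium-rich spot in µm (horizontal axis, from the spots themselves to farther than 200 µm), 1 line per control section. The mesothelial sum and *Wnt2b* dropped by the first step in all 3 sections, *Dcn* declined slowly and *Ttn* rose.

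The mesothelium-rich spots at the outer outline, 42, 32 and 37 of them, were compared with the 39, 52 and 31 inside. Of 10373 genes tested, 7 were higher and 3 lower at the outline (0.0964% in all, 0.0675% higher and 0.0289% lower), and none of 13 mesothelial genes passed the test (median 0.08). The 7 were *Tnc* (0.64), the globin genes *Hbb-bt* (1.05), *Hba-a2* (0.96) and *Hbb-bs* (0.94), and the liver genes *Alb* (1.46), *Apoa1* (1.61) and *Ttr* (1.65), which were higher in 2 of 3 sections. The calls of *Tnc*, *Hbb-bt* and *Hba-a2* ended without control 2, and those of *Hbb-bt*, *Hba-a2* and *Hbb-bs* with the spots chosen within depth classes (edgeR adjusted p = 0.46, 0.70 and 0.96). *Tnmd*, a gene of mature tendon, stood at 34.7, 31.1 and 26.1 CPM at the outline against 174, 32.9 and 211 CPM inside (−1.91 ± 0.27, edgeR adjusted p = 0.00136), with hardly any gap in control 2. *Ecrg4*, which encodes a secreted peptide, stood at 33.6, 24.6 and 31.9 CPM against 70.9, 49.8 and 78.7 CPM (−1.09 ± 0.18, adjusted p = 0.00904). *Six2* (−1.70) was the remaining gene that was lower. DESeq2 called 1 gene, and the count was 38, 16 and 128 without controls 1, 2 and 3.

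Tendon-rich spots are the top 10% by 5 tendon genes and share 8, 0 and 9 spots with the mesothelium-rich ones, which were left out. Of 11558 genes, 476 were higher and 511 lower in the mesothelium-rich spots (8.54% in all, 4.12% higher and 4.42% lower), and 13 of 14 mesothelial genes were higher (median 2.20 against 0.0084 over all genes). *Fmo2* (4.20), *Wnt2b* (2.99), *Dpp4* (2.73), a surface peptidase, *S100a6* (2.50) and *Gpm6a* (2.33) rose most. *Dpp4* stood at 37.4, 77.4 and 40.6 CPM against 9.98, 8.47 and 6.79 CPM (± 0.25 SE, edgeR adjusted p = 3.8e-05). *Rspo1* (2.08) and *Gdf6* (2.45) were higher too. *Cdh3*, by contrast, stood at 154, 311 and 45.8 CPM against 114, 144 and 119 CPM and did not pass the test (0.41, adjusted p = 0.453), and without control 2 its sign turned (−0.21). The genes that fell most were *Col2a1* (−3.75), the transcription factor gene *Erg* (−3.17), *Cilp* (−2.92), *Six2* (−2.79) and *Prss35* (−2.78), with *Prss35* at 106, 76.5 and 144 CPM against 874, 555 and 742 CPM. The ligand list gave 8 of 37 higher and 7 lower, and the count of genes was 572 without control 1 and 409 without control 2.

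Endothelium-rich spots, the top 10% by 5 endothelial genes, shared 3, 1 and 9 spots with the mesothelium-rich ones. Endothelium is also a flat sheet of cells on a basement membrane. Of 11672 genes, 192 were higher and 140 lower in the mesothelium-rich spots (2.84% in all, 1.64% higher and 1.2% lower), and 13 of 14 mesothelial genes were higher (median 2.50 against −0.0073 over all genes). *Fmo2* (4.26), *S100a6* (3.34), the transcription factor gene *Sim2* (2.96), *Wnt2b* (2.80) and *Cxadr* (2.79), which encodes a junction protein, rose most, and *Rspo1* rose by 3.04. *Cxadr* stood at 57.1, 57.0 and 43.0 CPM against 11.3, 4.81 and 9.53 CPM (± 0.29 SE, edgeR adjusted p = 0.00652). *Ly6d* (−6.38), *Akr1b7* (−5.48), *Emcn* (−2.95), *Plvap* (−2.88) and *Robo4* (−2.75) fell most, the first 2 in control 1 alone. With adrenal-rich and liver-rich spots left out 731 genes were called and these 2 did not pass the test. Without control 1 the count was 597, and with the spots chosen within depth classes it was 2, *Ly6d* and *Akr1b7*. Of 11 genes followed in this comparison, 4 lost their call with DESeq2 and 9 with the top 20% of spots.

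The same rule was applied to the CaV1.1 KO section at E14.5, which entered none of the fits above. It has no replicate, so its values carry no test, and the genes were chosen with earlier results of the series known. It gave 89 of 892 spots. Of the 15 mesothelial genes, 14 were higher there than in the rest of the section, with ratios of 1.57 to 13.2 (median 5.75), and *Anxa8* was at 0. *Muc16* stood at 29.4 against 2.24 CPM, *Aldh1a2* at 303.9 against 33.9 CPM, *Wnt2b* at 228.6 against 31.2 CPM, *Rspo1* at 41.4 against 7.76 CPM and *Krt14* at 15.1 against 1.30 CPM. *Wnt5a* (45.9 against 36.6 CPM) and *Gdf6* (21.9 against 12.6 CPM) had ratios of 1.25 and 1.73. *Ccn3*, which rose in the controls, stood at 3.42 against 4.32 CPM and was lower in the mesothelium-rich spots of this section. In the KO section 12 of the 89 spots held *Sftpc*, *Nkx2-1* or *Cldn18*, with 167 UMIs in all, so lung epithelium was counted among them, whereas the 3 controls had 0.

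At E18.5 the rule gave 346 of 3460 and 252 of 2525 spots. The difference between mesothelium-rich spots and the rest was itself compared between the stages, as the interaction of stage and spot set over 3 sections at E14.5 and 2 at E18.5. Of 13992 genes, 101 differed (0.722% in all, 77 or 0.55% more positive at E18.5 and 24 or 0.172% more negative), with a median of 0.066 over all genes. *Podxl* was higher in mesothelium-rich spots at E14.5, at 114, 166 and 75.9 CPM against 28.3, 33.9 and 24.6 CPM, and stood at 67.7 and 51.5 CPM against 48.4 and 52.0 CPM at E18.5 (−1.79 ± 0.20, edgeR adjusted p = 0.00842). Without TMM scaling *Podxl* in E18.5 control 2 stood at 42.06 CPM in mesothelium-rich spots against 37.89 CPM in the rest, so which was higher there depended on the scaling. *C3*, the central complement protein, changed the other way, from 0, 5.79 and 1.85 CPM against 0.648, 19.99 and 11.4 CPM to 257 and 277 CPM against 55.6 and 28.7 CPM (4.66 ± 0.45, adjusted p = 0.00535). The liver gene sums at E18.5 were 1401 against 1911 CPM and 48.46 against 18.72 CPM, and the part of liver tissue in the change of *C3* was not tested. Of the mesothelial list 2 of 19 genes were more positive and 1 more negative at E18.5. The median stage difference of this list was 1.03 against 0.066 over all genes, and 18 of 19 differences were above 0. The count of genes was 0 without E14.5 control 1, with 1333 at an unadjusted p under 0.05, and 822 without E18.5 control 2, where the balance turned, with 249 genes more positive and 573 more negative. Without TMM scaling 235 were more positive and 23 more negative.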

How the data were processed

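The deposited values are UMI counts, for each gene in each spot, of Visium probe-based libraries, made per the file headers with Space Ranger 2.0.0 for controls 1 and 2 at E14.5 and the CaV1.1 KO section, and 2.0.1 for control 3 at E14.5 and the E18.5 controls. These counts cover 19465 genes and were used without change. The members and the gene lists were chosen with earlier results of these data known. Spots under tissue with at least 1000 UMIs were ranked in each section by the summed UMIs of 5 genes over the UMIs of the spot, and the top 10% were compared with other spots of the same section. Each sample counted once, because spots of a section are not replicates: UMIs were summed per section and set of spots, genes with low sums were removed with filterByExpr, and edgeR 4.0.16 (R 4.3.3) fitted the sums with TMM scaling and the section as a block, with Benjamini-Hochberg adjustment and a threshold of 0.05. Fold changes are log2 with the standard error of the fit, and levels are CPM, TMM-scaled except where said otherwise. The block follows from the design, since both sets of a section come from 1 embryo. As a check, their deviations correlated over genes at 0.431, 0.386 and 0.324 in the 3 sections against the rest. In the other comparisons the values ran from −0.0427 (control 2, endothelium-rich spots) to 0.463, with 0.111 for control 3 and tendon-rich spots.

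A spot was called muscle where the mean log-normalized level (per 10000 UMIs) of 9 muscle genes passed Otsu's threshold of its section (scikit-image 0.26.0). The outer outline was found by flood fill of the array, with 6 neighbours per spot. Position was tested with exact sign-flip permutation tests over the 3 sections. Named genes were the 10 with the largest rise and the 5 with the largest fall past the threshold (5 and 5 for the comparisons with outline, tendon-rich and endothelium-rich spots and with E18.5) with an average log2 CPM of at least 5 and no section in the other direction (a section with no UMIs of the gene in either set, as for *Ly6d* in control 3, gave no direction), every tested mesothelial gene and up to 4 genes with the highest level from each list. Other genes were named after their values were seen. Some genes that the rule names are not reported here. Alternatives were DESeq2 1.42.0, no TMM, no filter, no block, each section left out, other shares of spots, another score, depth classes, 5000 UMIs per spot, outline spots left out and another muscle threshold. Leaving out adrenal-rich and liver-rich spots, and muscle spots only, were added after seeing the data. On data simulated for the comparison with the rest, over 13178 genes, 93% of 100 genes changed by 1 on the log2 scale and 52% of 100 changed by 0.585 were recovered, with 11 false calls. Promoter sequences and positions are RefSeq's on GRCm38.p6.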

Additional observations from a re-analysis of the deposited data

Results flagged for a closer look

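10 genes stood out because a test of the difference between stages found that their contrast between mesothelium-rich spots and the rest of the section was not the same at E18.5 as at E14.5. Each value is the log2 fold change at E18.5 minus that at E14.5, from edgeR with the section as a block, and every one of these calls ended without E14.5 control 1 and without the block.

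5 genes were more positive at E18.5. For the complement gene *C3* the difference was 4.66, and for *Gfpt2*, an enzyme of hexosamine synthesis, it was 2.10. *Gfpt2* stood at 25.8, 19.6 and 29.6 CPM in mesothelium-rich spots against 32.4, 33.1 and 36.4 CPM in the rest at E14.5, and at 80.2 and 61.4 CPM against 19.9 and 26.8 CPM at E18.5. It was therefore lower than the rest in every section at E14.5 and higher in both at E18.5. For *Ndufa4l2* the difference was 2.10, for the chemokine scavenger *Ackr3* it was 1.76 and for the ephrin gene *Efna5* it was 1.74. *Ackr3* stood at 25.8, 31.5 and 20.4 CPM against 23.4, 22.5 and 17.8 CPM at E14.5, and at 93.7 and 96.7 CPM against 18.4 and 28.3 CPM at E18.5.

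5 genes were more negative at E18.5. For the transglutaminase *Tgm2* the difference was −2.12, for the muscle protein gene *Mybpc2* it was −2.05, for *Podxl* it was −1.79, for *Shisa4* it was −1.46 and for the carbonic anhydrase *Car14* it was −1.17. *Tgm2* stood at 145, 239 and 68.5 CPM against 42.8, 51.0 and 31.2 CPM at E14.5, and at 474 and 549 CPM against 691 and 578 CPM at E18.5. These levels are TMM-scaled, with factors from 0.7051 to 1.235. Without that scaling *Tgm2* in E18.5 control 2 stood at 449.1 CPM in mesothelium-rich spots against 420.8 CPM in the rest, so which was higher there depended on the scaling. Of the mesothelium-rich spots, 15.9% lay at the outer outline in E18.5 control 1 and 56.35% in E18.5 control 2, against 38.1% to 54.41% at E14.5. In muscle lay 41.04% and 78.17% of them against 94.73% and 88.08% of the other spots at E18.5, and 34.57%, 34.52% and 63.24% against 71.17%, 71.5% and 87.48% at E14.5. Beside 0.55% of all genes, 3 of 10 genes of the liver list were more positive at E18.5 (median 1.17). The adrenal list had 1 of 9 more positive (median 3.56), against a median of 0.066 over all genes. The part of these in the differences was not tested.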

How the results depend on the processing

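The 3 sections limit what can be tested, since no exact test over them goes below p = 0.25 and control 3 gave few UMIs to the rule. Of 127 genes followed in the comparison with the rest of the section, 1683 values under alternatives stayed on their side of the threshold, 151 lost the call, 28 gained one and 29 turned sign. For every alternative below the cause of the change was not tested.

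Against the rest (2688 genes), the count was 1622 with DESeq2, 1655 with 3 depth classes, 1775 with outline spots left out, 1466 in muscle spots only, and 1115 to 3122 with 1 section left out. Outside muscle (396) it was 181 with DESeq2, 901 with no filter, 709 with the top 5%, 245 with the top 20%, 111 with 0.8 times the muscle threshold, 652 with adrenal-rich and liver-rich spots left out, and 159 to 530 with 1 section left out. At the outline (10) it was 1 with DESeq2, 59 with no filter, 166 with the top 20%, 65 with a mean z-score, 197 with 3 depth classes, 18 with a minimum of 5000 UMIs, and 16 to 128 with 1 section left out. Against tendon-rich spots (987) it was 363 with DESeq2, 1488 with no filter, and 409 to 1388 with 1 section left out. Against endothelium-rich spots (332) it was 756 with no filter, 670 with the top 5%, 14 with the top 20%, 210 with a mean z-score, 2 with 3 depth classes, 731 with adrenal-rich and liver-rich spots left out, and 260 to 597 with 1 section left out. Between stages (101) it was 258 without TMM, 438 with no filter, 211 with the top 20%, 40 with 3 depth classes, and 0 to 822 with 1 section left out. Without TMM the median stage difference of all genes moved from 0.066 to 0.20. The mean share of mesothelium-rich spots at the outline was 37.33% with the top 20%.

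Without the replicate block the counts were 1414 against the rest, 0 outside muscle, 0 at the outline, 536 against tendon-rich spots, 326 against endothelium-rich spots and 0 between stages, with 911, 294 and 1311 genes at an unadjusted edgeR p under 0.05 for the 3 counts of 0.

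The values that turned sign against the rest, on the log2 scale, were mostly of genes near 0. With 1 section left out, *Tjp1* ranged from −0.070 (without control 2) to 0.13, *Bcam* from −0.075 (without control 2) to 0.188, *Tead1* from −0.053 (without control 2) to 0.046, *Kdr* from −0.043 to 0.017 (without control 3), *Mcm6* from −0.022 (without control 3) to 0.072, *Col11a1* from −0.019 (without control 3) to 0.20, *Col9a3* from −0.070 (without control 1) to 0.602, *Fdx1* from −2.28 to 0.38 (without control 1) and *Star* from −4.10 to 0.109 (without control 1). With no filter, *Tjp1* was −0.0080, *Tead1* −0.0060 and *Mcm6* −0.0048. With the top 20%, *Bcam* was −0.087, *Tead1* −0.049 and *Mcm6* −0.012. With depth classes, *Tead1* was −0.013 and *Col9a3* −0.020. Without adrenal-rich and liver-rich spots, *Tead1* was −0.012, *Kdr* 0.0078 and *Fdx1* 0.068. In muscle spots only, *Tjp1* was −0.090, *Mcm6* −0.038, *Cebpa* −0.10, *Fdx1* 0.075 and *Cyp11a1* 0.13. *Kdr* was 0.038 without TMM, 0.0083 without the block and 0.014 with the top 5%. *Cdh3* ranged from −0.21 (without control 2) to 0.83 against tendon-rich spots, and *Akr1b7* was 0.87 against endothelium-rich spots with the top 5%.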
